A study of Mus musculus with 24 samples.

Results

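The 54 genes described here encode parts of the machinery that segregates chromosomes and divides the cell: inner and outer kinetochore proteins, spindle checkpoint proteins, mitotic kinesins, the chromosomal passenger complex, spindle pole proteins and mitotic kinases, central spindle and cytokinesis proteins, regulators of anaphase onset, and condensin with other chromosome proteins. The rule that defines them is a list of names and uses no measured value, but the list was drawn up with earlier results of these data known. All 54 were found, by Ensembl identifier and mouse symbol, among the 15667 genes listed for the uninjected hearts and among the 15327 genes listed for the injected hearts. They lie on 17 chromosomes.

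By the labels, RNA came from the heart apex of mice at postnatal day 7.5, in 24 libraries that fall into 6 groups of 4. Xinβ KO mice carry a germline LacZ-Neo cassette in place of part of the gene Xirp2, which encodes Xinβ, a protein of the intercalated disc, and WT mice are their littermates. The first pair of groups, WT and KO, was not injected. The other groups received AAV9 at postnatal day 1 with a vector driven by the cTnT promoter, which is active in cardiomyocytes, carrying either GFP (WT/GFP and KO/GFP) or aYAP(S127A), a form of YAP that cannot be inhibited by phosphorylation at its main Hippo site (WT/aYAP and KO/aYAP). The labels name the 4 libraries of a group as replicates and give no batch. Uninjected and injected libraries were read and tabulated separately, so levels are compared only within each set.

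In a dividing cell the inner kinetochore assembles on centromeric chromatin, and the outer kinetochore built on it binds the spindle microtubules. The checkpoint holds anaphase back until all chromosomes are attached, and the central spindle and the contractile ring then separate the daughter cells. Mouse cardiomyocytes divide before birth and largely leave the cell cycle in the first week after it, often with a last round of mitosis that is not followed by cytokinesis, whereas fibroblasts, endothelial cells and macrophages of the same tissue keep dividing. In whole heart tissue, fewer dividing cells and less RNA of these genes per cell cannot be told apart.

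Many genes of this kind are known to be switched on together in late G2 and mitosis through a short promoter element, the cell cycle genes homology region (CHR, searched here as TTTGAA on either strand), often with a CCAAT box (CCAAT, either strand) a short way before it. Promoters of 300 bases, 250 before and 50 after the annotated start, were found in RefSeq (GRCm38.p6) for 48 of the 54 genes. A CHR lay within 50 bases of the start in 31 of these 48 genes (64.6%), against 1546 of all 27025 genes with a promoter (5.72%). At least 1 CCAAT box was present in 35 of the 48 (72.9%), against 41.1% of all genes, and at least 2 in 21 (43.8%), against 13.3%. A CHR near the start together with a CCAAT box was found in 26 of the 48 (54.2%) and in 2.39% of all genes. A match to an E2F motif (GCGGGAA, either strand) was found in 5 of the 48 (10.4%) and in 5.29% of all genes. In 2 promoters a CHR and a CCAAT box shared bases. A gene with several promoters counts where any of them holds the match. These are matches of letters, not measured binding sites.

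The stretches below run from 100 bases before the start to the 30th base from it and are written 5′ to 3′ on the gene's own strand, with matches to the 3 motifs in capitals. Hmmr, Cdc20 and Top2a are shown because they had the largest fall of their block in KO/GFP hearts, Cenpf because it was among the genes whose response to YAP differed between genotypes, and Bub3 and Pttg1 because they changed least.
Hmmr, chr11:40733408-40733537, minus strand: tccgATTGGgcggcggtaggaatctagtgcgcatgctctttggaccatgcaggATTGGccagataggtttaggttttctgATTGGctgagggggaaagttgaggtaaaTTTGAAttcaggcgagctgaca
Cdc20, chr4:118437314-118437443, minus strand: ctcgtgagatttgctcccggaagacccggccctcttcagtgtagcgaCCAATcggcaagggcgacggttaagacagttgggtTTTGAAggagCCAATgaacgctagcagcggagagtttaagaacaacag
Cenpf, chr1:189688057-189688186, minus strand: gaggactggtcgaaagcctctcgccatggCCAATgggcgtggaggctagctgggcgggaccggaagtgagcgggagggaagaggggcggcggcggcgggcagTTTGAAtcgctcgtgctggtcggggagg
Top2a, chr11:99024160-99024289, minus strand: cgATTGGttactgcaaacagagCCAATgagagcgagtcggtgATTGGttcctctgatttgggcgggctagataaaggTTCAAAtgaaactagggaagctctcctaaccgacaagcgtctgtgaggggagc
Bub3, chr7:131560270-131560399, plus strand: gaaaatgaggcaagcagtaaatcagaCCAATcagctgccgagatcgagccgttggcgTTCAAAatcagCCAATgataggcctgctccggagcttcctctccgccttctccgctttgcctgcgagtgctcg
Pttg1, chr11:43425952-43426081, minus strand: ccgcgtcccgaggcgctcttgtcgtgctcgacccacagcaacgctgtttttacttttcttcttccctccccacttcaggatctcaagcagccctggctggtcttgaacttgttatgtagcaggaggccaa
Hmmr, Cdc20 and Cenpf carried the CHR as TTTGAA, at bases 8, -18 and 2 from the start, where the start is base 0. Top2a and Bub3 carried it on the other strand at bases -23 and -43. Pttg1 had no match to any of the 3 motifs in its RefSeq promoter, but the GENCODE M21 gene on the same build begins at base 43426251 of chromosome 11, upstream of that window. Bub3 had a second annotated start, whose stretch is not shown.

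**Figure D1:**
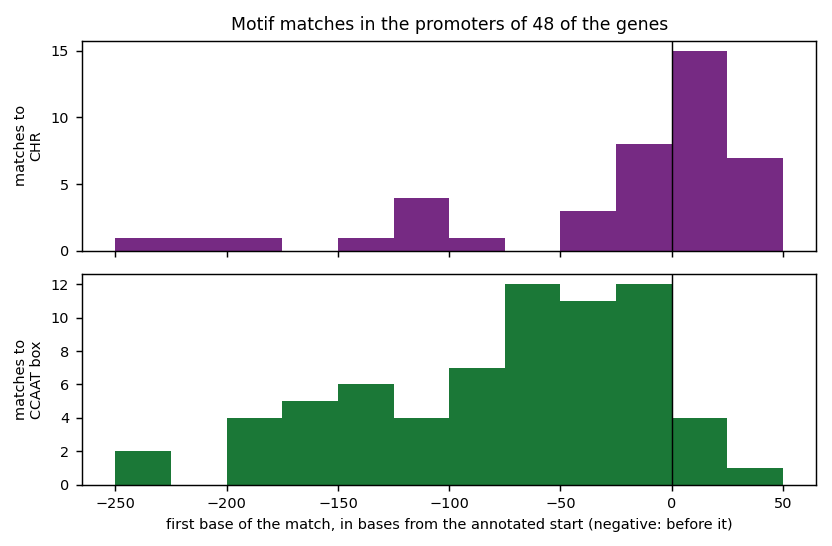
Histograms of the first base of each match to the CHR and to the CCAAT box, in 25-base bins along the promoters of 48 of the genes (1 promoter per gene), with the annotated start at 0. Of the 42 CHR matches, 33 began within 50 bases of the start, and 40 of the 68 CCAAT boxes lay more than 50 bases before it.

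Genes with and without a CHR overlapped in their fold changes. In KO/GFP against WT/GFP, the median log2 fold change was -1.23 over the 31 genes with a CHR near the start, with a range of -1.68 to -0.25. Over the 17 genes without one it was -1.18, with a range of -1.63 to -0.07.

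Xirp2, the targeted gene, stood at or below 0.972 CPM in all KO libraries and between 55.98 and 168 CPM in the WT libraries, so every library matched its genotype. The libraries held 20490875 to 31154155 reads on listed genes in the uninjected set and 15015038 to 19444404 in the injected set. The 8 cardiomyocyte markers summed to 59989 to 67370 CPM in WT, 66226 to 89865 CPM in KO, 53303 to 67560 CPM in WT/GFP, 60342 to 71456 CPM in KO/GFP and 58636 to 61267 CPM in KO/aYAP hearts. Of them, Tnnt2 and Pln were called higher in both KO comparisons (log2 fold changes of 0.60 and 1.38 uninjected and 0.65 and 0.53 in KO/GFP) and lower with active YAP in KO (-0.62 and -0.41). Atrial markers summed to 95 to 311 CPM in WT/GFP, 214.1 to 426 CPM in KO/GFP and 35.2 to 172 CPM in KO/aYAP hearts. None of the 4 lung epithelial markers was listed. Of the 10 thymocyte markers, none was listed in the uninjected set and only Cd4 in the injected set. Summed markers of several other cell types differed with genotype, although not every marker did. The 6 fibroblast markers summed to 2132 to 2273 CPM in WT and 1142 to 1567 CPM in KO hearts, and to 2026 to 2373 CPM in WT/GFP, 1169 to 1664 CPM in KO/GFP and 2043 to 2624 CPM in KO/aYAP hearts. The 6 macrophage markers summed to 55.4 to 70.6 CPM in WT and 22.7 to 35.1 CPM in KO hearts, and to 70.95 to 113 CPM in WT/GFP, 24.04 to 47.8 CPM in KO/GFP and 70.4 to 92.7 CPM in KO/aYAP hearts. The 7 endothelial markers summed to 1562 to 1730 CPM in WT and 1172 to 1459 CPM in KO hearts, and to 1466 to 1620 CPM in WT/GFP, 1273 to 1401 CPM in KO/GFP and 1480 to 1560 CPM in KO/aYAP hearts. The 5 smooth muscle and pericyte markers summed to 1647 to 1830 CPM in WT/GFP, 1194 to 1522 CPM in KO/GFP and 1838 to 2322 CPM in KO/aYAP hearts, and the 7 erythroid markers to 3393 to 8425, 1213 to 3119 and 1866 to 2061 CPM, while both overlapped between uninjected WT and KO hearts. By gene, 6 of 6 macrophage, 4 of 6 fibroblast, 3 of 7 endothelial, 1 of 5 smooth muscle and 5 of 7 erythroid markers were called lower in KO/GFP. The fibroblast genes Pdgfra and Tcf21 were at log2 fold changes of -0.03 and -0.05 there, the endothelial gene Pecam1 at -0.02 and Emcn at 0.34. With active YAP in KO, Emcn was called lower (-0.45, limma adjusted p = 0.036), and Kdr (0.40) and Cdh5 (0.26) of its list were called higher. Dcn, Col1a1, Col1a2 and Lum were also called higher (0.53 to 1.08), but Pdgfra and Tcf21 (both 0.24) were not. All macrophage markers except Ptprc (0.65) were called higher (0.59 to 1.52). Acta2, Myh11 and Rgs5 were too (0.33 to 1.26), but not Pdgfrb (-0.03) or Kcnj8 (0.19). The part of these cell types in the results on the 54 genes was not tested.

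The KO hearts were not uniform. The median over the 54 genes of log2(CPM + 1), taken relative to the mean of the WT controls, was -1.94, -1.59, -2.41 and 0.10 in KO replicates 1 to 4. KO replicate 4 was thus at the WT level, and it held the highest value of the group for 52 of the 54 genes. In KO/GFP replicates 1 to 4 the median was -1.44, -0.24, -0.73 and -2.14, so that replicate 2 stood near WT/GFP and replicate 4 lowest. KO/GFP replicate 2 was the highest of its group for 51 genes and replicate 4 the lowest for 52. The medians of the WT, WT/GFP and WT/aYAP libraries all lay between -0.18 and 0.20, and those of the KO/aYAP libraries between -0.33 and -0.17. The median coefficient of variation of a gene was 104% in KO and 59.2% in KO/GFP, against 15.2% in WT, 13.7% in WT/GFP, 13% in WT/aYAP and 11.8% in KO/aYAP hearts.

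The exceptional KO libraries also differed from their groups in Ddx3y, a gene of the Y chromosome. Ddx3y was at 21.7, 45.99, 56.2 and 3.68 CPM in KO replicates 1 to 4 and, in the same order, at 68.1, 0.588, 51.6 and 66.9 CPM in KO/GFP hearts, so the library with the highest level of the 54 genes had the lowest Ddx3y in both groups. The uninjected WT hearts had 45.4, 49.6, 47.8 and 39.5 CPM, so none of them was low. In the injected groups other than KO/GFP, libraries with low Ddx3y did not stand apart. WT/GFP replicate 4 had 0.110 CPM and a median of -0.11, WT/aYAP replicate 3 had 8.61 CPM and a median of -0.05, and KO/aYAP replicates 3 and 4 had 0.915 and 0.229 CPM and medians of -0.17 and -0.24. The study's methods describe both sexes in equal numbers within each group. The Ddx3y levels clearly match this only in KO/aYAP, where replicates 1 and 2 had 88.9 and 86.4 CPM. Some values, such as 21.7 CPM in KO and 8.61 CPM in WT/aYAP, lay in between, and no sex was assigned here. With 1 such library in each of KO and KO/GFP, whatever goes with low Ddx3y and the individual heart cannot be told apart. In the marker sums KO replicate 4 lay with its group, at 1567 CPM for fibroblasts and 22.7 CPM for macrophages.

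**Figure D2:**
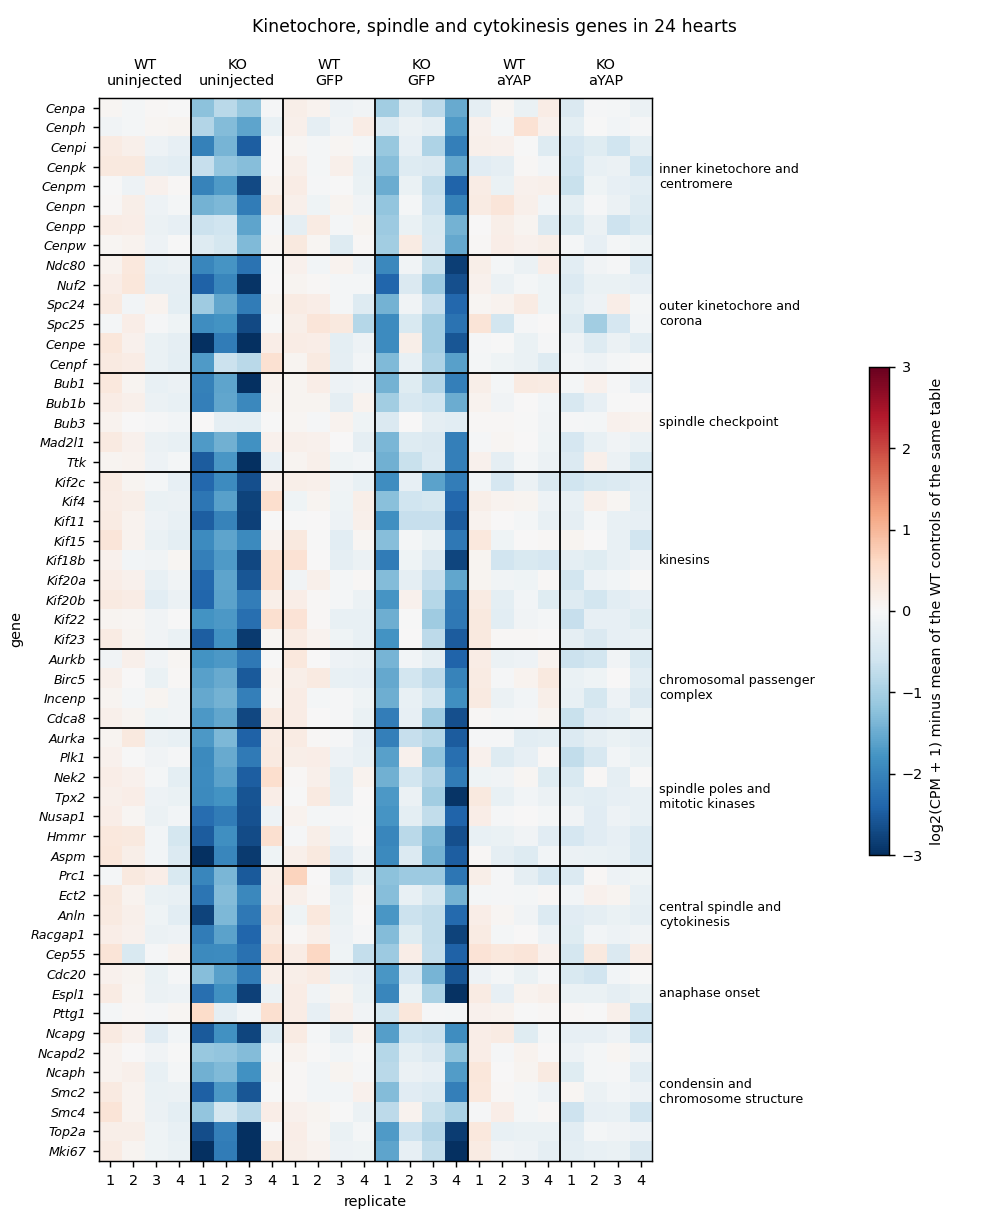
Each row is a gene and each column a library, and the colour is log2(CPM + 1) minus the mean of the WT controls of the same table (uninjected WT or WT/GFP), from -3 (blue) to 3 (red). KO replicates 1 to 3 and KO/GFP replicates 1 and 4 are blue in nearly every row, KO replicate 4 is not, and Bub3 and Pttg1 stay pale throughout.

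The first comparison asked what loss of Xinβ did to these genes without any vector. In KO replicates 1, 2 and 3, 50, 47 and 50 of the 54 genes stood below 50% of the WT mean, with medians of 21.8%, 28.5% and 13.8% of it. In KO replicate 4, none did, and the median was 107%. Over all 4 KO hearts, 53 of 54 genes were lower than in WT, with a median log2 fold change of -1.43 against 0.00 over all 15598 genes tested. Only Ncapg passed an adjusted p of 0.05 in limma (called genes, below), where 3.46% of all genes were called lower, and 49 of the 54 were lower at an unadjusted p of 0.05, against 12.7% of all genes. Of the 54, 4 did not overlap between the groups (Cenph, Ttk, Espl1 and Ncapg, all lower in KO), against 8.43% of all genes.

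Leaving out KO replicate 4 changed this count most. Without it, 51 of the 54 genes were called lower (background 7.98%), the median log2 fold change was -1.98, and 52 genes were lower in the remaining KO hearts without overlap (background 15.2%). Leaving out any other uninjected library gave 0 called genes. With Ddx3y as a covariate 50 genes were called. KO replicate 4 had by far the lowest Ddx3y of the uninjected libraries, so that fit is not independent of leaving this library out.

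Ncapg, a subunit of condensin I, was at 14.8, 13.4, 9.48 and 11.5 CPM in the WT hearts and at 1.31, 2.73, 0.949 and 9.098 CPM in the KO hearts (log2 fold change -1.87, standard error 0.45, adjusted p = 0.043). Here even KO replicate 4 stayed below the lowest WT heart.

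With the GFP vector, most of the 54 genes were lower in KO hearts. All 54 were below WT/GFP in fold change, 47 were called lower by limma (background 7.22%), and none was higher. The median log2 fold change was -1.18, against -0.01 over the 14597 genes tested, and the mean CPM of a gene in KO/GFP was 47.6% of the WT/GFP mean in the median. No overlap between the groups was seen for 31 of the 54 (background 7.95%). The 7 genes not called were Cenph, Cenpw, Bub3, Kif15, Aurkb, Cep55 and Pttg1. By edgeR on the recovered reads 33 were called, without Cenpm, Cenpn, Ndc80, Spc24, Cenpe, Kif18b, Kif20b, Kif22, Kif23, Plk1, Espl1, Ncaph, Smc4 and Mki67. Leaving out KO/GFP replicate 2 gave 52 called genes and a median of -1.46, and leaving out KO/GFP replicate 1 gave 28 called genes. Without KO/GFP replicate 4 the median was -0.83. A fit on the 8 libraries of these 2 groups alone, without the other injected groups that share the estimate of the spread, called 17. Those other groups varied less, with median coefficients of variation of 13% in WT/aYAP and 11.8% in KO/aYAP against 59.2% in KO/GFP. The shared fit can therefore understate the spread of KO/GFP hearts.

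The uninjected and GFP comparisons share no library. Over the 54 genes, their log2 fold changes had a Pearson's r of 0.81 and a Spearman's rho of 0.70. Genes are not independent replicates, and the scale shrinks the changes of genes with low CPM in both.

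**Figure D3:**
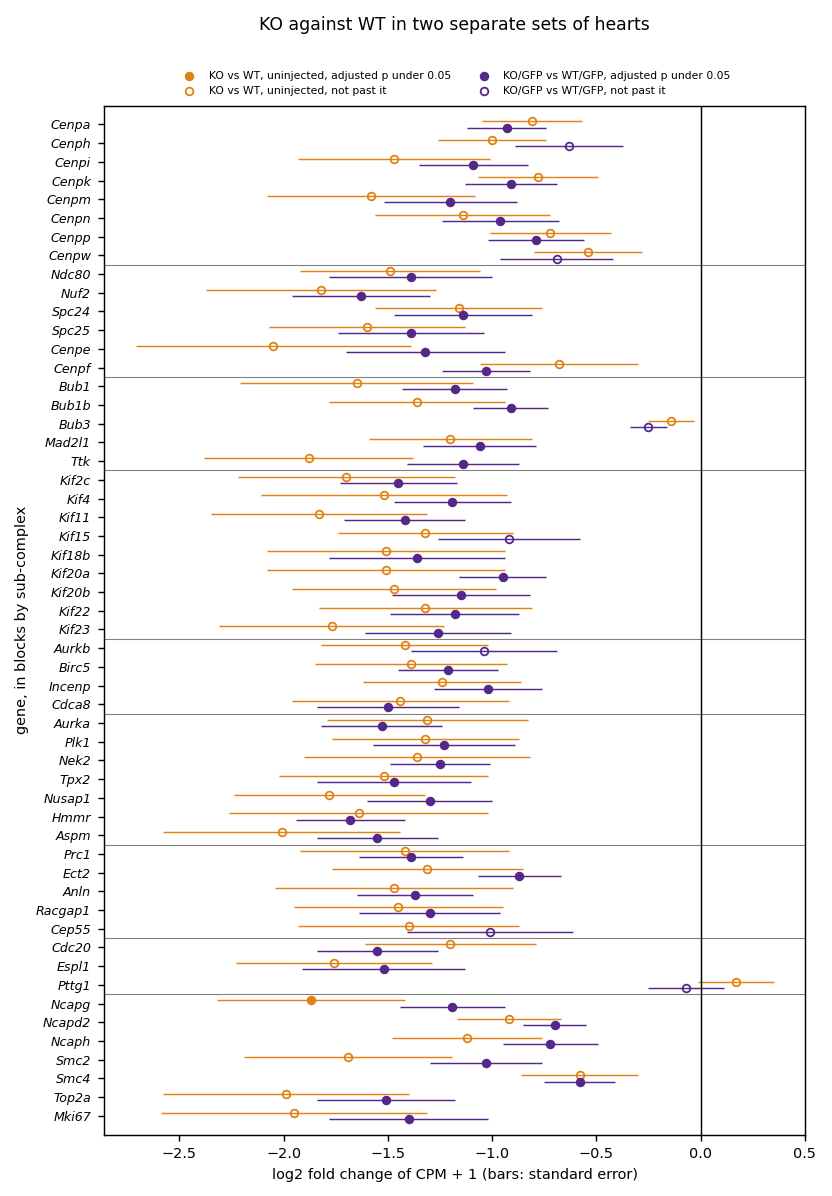
Log2 fold change of CPM + 1 with its standard error for each gene, in blocks by sub-complex, for KO against WT in uninjected hearts (orange) and KO/GFP against WT/GFP (purple), with filled points where the adjusted p is under 0.05. All 54 purple points lie left of 0, from Hmmr at -1.68 to Pttg1 at -0.07, and most orange bars are wider.

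Active YAP in KO hearts was compared with GFP in KO hearts. In KO/aYAP against KO/GFP, 53 of the 54 genes were higher and 29 were called higher by limma (background 7.85%), with a median log2 fold change of 0.93 against 0.01 over all genes. That median was 0.62 without KO/GFP replicate 4 and 1.25 without KO/GFP replicate 2. No overlap was seen for 17 genes (background 9.02%). The count was 18 without KO/GFP replicate 1, 18 without KO/aYAP replicate 3 and 50 without KO/GFP replicate 2, edgeR called 20, and a fit on these 2 groups alone called 4. Of the genes described below as not called in this comparison, Cenpm (1.19), Bub3 (0.37), Kif15 (1.02), Incenp (0.95) and Smc4 (0.38) were called without KO/GFP replicate 2, and Incenp (0.84) also without replicate 3. Without KO/GFP replicate 4 the rises of Cenpm, Kif15, Incenp and Smc4 were only 0.45, 0.33, 0.41 and 0.04, and that of Bub3 was lowest without replicate 1 (0.22). Bub3 was also called lower in KO/GFP (-0.33) without KO/GFP replicate 2.

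KO/aYAP hearts came close to WT/GFP but stayed slightly below it. The mean CPM of a gene was 84.3% of the WT/GFP mean in the median over the 54, from 67.3% for Spc25 to 103% for Bub3. The log2 fold change was negative for 53 of the 54, with a median of -0.23, and none was called (0 by edgeR and by DESeq2 too, and 0.0206% of all genes called lower). At an unadjusted p of 0.05 only Smc4 was lower, against 2.84% of all genes. The shared fit takes the spread for these tests also from KO/GFP hearts, whose median coefficient of variation was 59.2%. It was 13.7% in WT/GFP and 11.8% in KO/aYAP hearts, so the lack of calls does not show equal levels. A fit on these 2 groups alone also called 0. For 11 genes (Cenpi, Nuf2, Kif2c, Kif20b, Kif22, Incenp, Nusap1, Hmmr, Anln, Smc4 and Mki67) every KO/aYAP heart was below every WT/GFP heart, against 2.32% of all genes.

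In WT hearts active YAP did not detectably move the genes. WT/aYAP against WT/GFP gave 0 called genes among the 54 in limma, edgeR and DESeq2 (background 0.00%) and 0 at an unadjusted p of 0.05 (background 6.93%). The spread in the limma test came in part from the more variable KO/GFP hearts, and a fit on the 2 groups alone also called 0. The median log2 fold change was -0.03, with 30 genes lower and 24 higher and a range from -0.36 for Kif18b to 0.30 for Cep55. The KO/aYAP, KO/GFP and WT/aYAP comparisons share control libraries with each other.

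The YAP effect was tested for a difference between the genotypes by an interaction term. It was larger in KO than in WT for 53 of the 54 genes, by a median log2 of 0.92, and 35 passed at an unadjusted p of 0.05 (background 12.4%). After adjustment 7 genes were called (Cenpf, Aurka, Nek2, Hmmr, Aspm, Prc1 and Cdc20, background 3.80%), with 3 called by edgeR and 8 by DESeq2. This count depended on single libraries. It was 36 without KO/GFP replicate 2, 13 without KO/GFP replicate 3 and 1 to 4 without any one of the other injected libraries except WT/GFP replicate 3 and KO/GFP replicate 4, and it was 3 with the Ddx3y covariate and 4 with a replicate block. Hmmr had the largest difference (log2 fold change 1.52, standard error 0.36, adjusted p = 0.02).

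**Figure D4:**
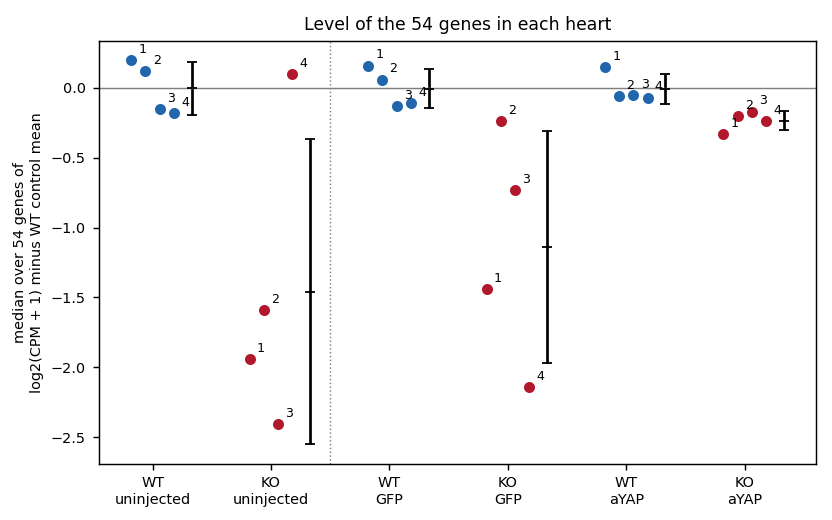
Each point is a library, numbered by its replicate, at the median over the 54 genes of log2(CPM + 1) minus the mean of the WT controls, and the black bars are the mean and SD of 4 libraries. The KO and KO/GFP points spread from -2.41 to 0.10, whereas the KO/aYAP points lie between -0.33 and -0.17.

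**Figure D5:**
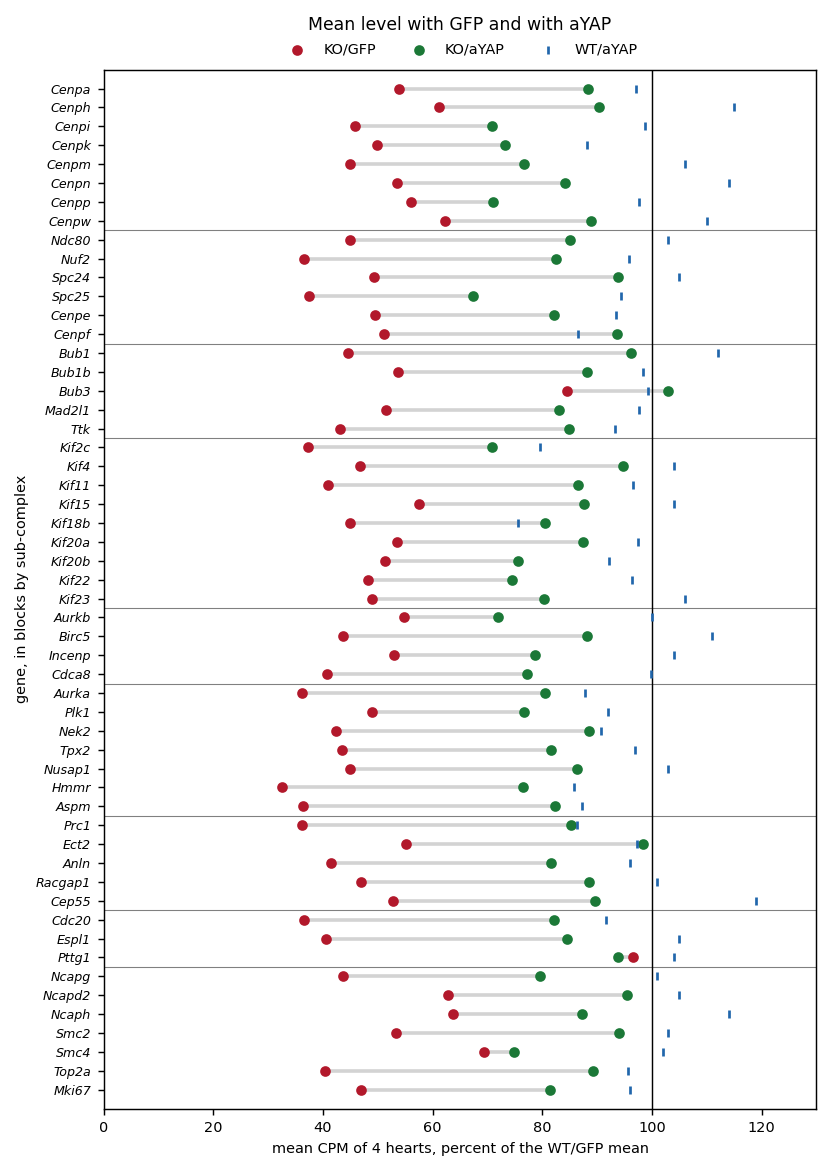
Mean CPM of 4 hearts for each gene as a percentage of the WT/GFP mean, for KO/GFP (red), KO/aYAP (green) and WT/aYAP (blue ticks). The median gene stood at 47.6% in KO/GFP, 84.3% in KO/aYAP and 98.1% in WT/aYAP, and Pttg1 is the gene whose green point lies left of its red one.

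Inner kinetochore genes had a median log2 fold change of -0.90 in uninjected KO and -0.92 in KO/GFP hearts. Of these 8 genes, 6 were called lower in KO/GFP (Cenpa, Cenpi, Cenpk, Cenpm, Cenpn and Cenpp), and only Cenpa was called higher with active YAP. Cenpa encodes the histone H3 variant that marks centromeres and had the highest level per kb of transcript of all 54 genes, 36 ± 1.41 CPM per kb in WT and 46.7 ± 5.12 CPM per kb in WT/GFP hearts (SD, n = 4). It stood at 55.1, 50.4, 53.7 and 52.1 CPM in WT replicates 1 to 4 and 21.8, 29.6, 23.3 and 51.6 CPM in the KO replicates. In the injected hearts Cenpa was at 76.6, 72.96, 61.1 and 63.2 CPM with WT/GFP, 32.5, 52.1, 39.4 and 23.2 CPM with KO/GFP, 56.4, 70.9, 58.8 and 79.7 CPM with WT/aYAP and 50.1, 66.7, 65.4 and 59.8 CPM with KO/aYAP. All KO/GFP hearts were below all WT/GFP hearts (log2 fold change -0.93, standard error 0.19, adjusted p = 0.0036), and the rise with active YAP passed the test (log2 fold change 0.75, standard error 0.19, adjusted p = 0.012) although 1 KO/aYAP heart was within the KO/GFP range.

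Cenpm, a subunit of the constitutive centromere network, was the inner kinetochore gene with the largest fall in KO/GFP. It stood at 10.6, 8.701, 8.81 and 7.62 CPM in WT/GFP and 2.55, 7.65, 4.97 and 0.881 CPM in KO/GFP hearts (log2 fold change -1.2, standard error 0.32, adjusted p = 0.02), and at 5.19, 8.004, 7.26 and 6.92 CPM in KO/aYAP hearts. KO/GFP replicate 2 reached the lowest WT/GFP heart, so the groups overlapped, and the call was lost without WT/GFP replicate 1 (-1.12) or KO/GFP replicate 1 (-1.10) and in edgeR (adjusted p = 0.061). In the uninjected hearts Cenpm was at 5.54, 4.895, 6.21 and 5.73 CPM in WT and 0.632, 1.02, 0 and 6.03 CPM in KO, with KO replicate 3 listed at 0. Cenph of the same network was at the other end. It stood at 4.42, 3.01, 3.48 and 4.71 CPM in WT/GFP and 2.67, 3.33, 3.04 and 0.496 CPM in KO/GFP hearts (log2 fold change -0.63, standard error 0.26, adjusted p = 0.12), a difference that did not pass and was -0.28 without KO/GFP replicate 4. In uninjected hearts it stood at 2.06, 2.15, 2.44 and 2.47 CPM in WT and 0.777, 0.329, 0.0999 and 1.79 CPM in KO, all KO hearts being below all WT hearts (log2 fold change -1.0, standard error 0.26, adjusted p = 0.052).

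The outer kinetochore block holds the 4 subunits of the NDC80 complex, which binds microtubule ends, and the corona proteins Cenpe, a kinesin that carries chromosomes to the metaphase plate, and Cenpf. All 6 were called lower in KO/GFP by limma and 3 by edgeR, with a median log2 fold change of -1.35, and Nuf2, Spc24 and Cenpf were called higher with active YAP. Nuf2 was at 24.2, 23.5, 21.7 and 21.9 CPM in WT/GFP and 3.601, 16.7, 10.2 and 2.81 CPM in KO/GFP hearts (log2 fold change -1.63, standard error 0.33, adjusted p = 0.0039), without overlap. With active YAP it stood at 16.9, 19.7, 19.7 and 19.05 CPM in KO (log2 fold change 1.37, standard error 0.33, adjusted p = 0.011) and 24.8, 20.02, 21.9 and 20.8 CPM in WT hearts. Each KO/aYAP heart was above every KO/GFP heart and below every WT/GFP heart. The uninjected values were 20.2, 22.2, 14.1 and 14.2 CPM in WT and 2.43, 3.69, 1.399 and 17.6 CPM in KO, where replicate 4 alone fell within the WT range.

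Cenpf had the smallest fall of this block in KO/GFP but was one of the genes called in the interaction. It stood at 58.8, 66.99, 45.9 and 51.9 CPM in WT/GFP, 21.5, 47.1, 28.5 and 17.1 CPM in KO/GFP, 52.95, 50.7, 47.9 and 41.9 CPM in WT/aYAP and 52.2, 49.3, 52.8 and 54.9 CPM in KO/aYAP hearts. KO/aYAP hearts were all above the KO/GFP hearts (log2 fold change 0.95, standard error 0.21, adjusted p = 0.0067), and the YAP effect exceeded that in WT (log2 fold change 1.15, standard error 0.30, adjusted p = 0.031). The 3 other members, Ndc80, Spc25 and Cenpe, had YAP fold changes in KO of 1.17, 0.89 and 1.06 that did not pass.

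Among the 5 checkpoint genes, Bub1, Bub1b, Mad2l1 and Ttk were called lower in KO/GFP and Bub3 was not, and Bub1, Bub1b and Ttk were called higher with active YAP. Bub1 and Ttk encode checkpoint kinases, Bub1b the BubR1 protein and Mad2l1 the Mad2 protein, which with Bub3 and Cdc20 form the inhibitor of the anaphase-promoting complex. Bub1 was at 13.98, 15.2, 11.7 and 12.2 CPM in WT/GFP and 4.28, 10.1, 6.79 and 2.42 CPM in KO/GFP hearts (log2 fold change -1.18, standard error 0.25, adjusted p = 0.0054), without overlap, and at 12.7, 14.5, 12.9 and 10.9 CPM in KO/aYAP hearts (log2 fold change 1.12, standard error 0.25, adjusted p = 0.0068). Its KO/aYAP values lay within or next to the WT/GFP range. Uninjected, it was at 16.8, 14.1, 11.3 and 11.8 CPM in WT and 2.53, 3.82, 0.649 and 14.4 CPM in KO hearts. Bub3, which also has functions outside mitosis, was at 52.95, 50.2, 54.7 and 46.95 CPM in WT/GFP and 37.7, 51.7, 42.5 and 41.1 CPM in KO/GFP hearts (log2 fold change -0.25, standard error 0.09, adjusted p = 0.097), at 50.1, 49.2, 56.1 and 54.96 CPM in KO/aYAP, at 57.8, 53.8, 51.8 and 50.2 CPM in uninjected WT and at 53.7, 43.8, 43.2 and 53.1 CPM in uninjected KO hearts. Its SE of 0.09 in the injected fit was the smallest of the 54 genes, and its change in KO/GFP was the second smallest after Pttg1. Ttk was one of the genes without overlap in uninjected hearts (log2 fold change -1.88, standard error 0.50, adjusted p = 0.057).

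Of the 9 kinesins, 8 were called lower in KO/GFP by limma, all except Kif15, with a median of -1.19, and 4 by edgeR (Kif2c, Kif4, Kif11 and Kif20a). Kif2c, Kif4, Kif11 and Kif20a were called higher with active YAP. Kif2c encodes MCAK, which depolymerizes microtubules at centromeres. It stood at 14.1, 13.7, 11.4 and 10.4 CPM in WT/GFP and 2.67, 10.3, 3.33 and 2.15 CPM in KO/GFP hearts (log2 fold change -1.45, standard error 0.28, adjusted p = 0.003), each KO/GFP heart being below all WT/GFP hearts. KO/aYAP hearts had 7.78, 8.71, 8.98 and 9.61 CPM (log2 fold change 1.0, standard error 0.28, adjusted p = 0.025) and WT/aYAP hearts 11.5, 8.38, 10.7 and 8.86 CPM, so that KO/aYAP stayed under the WT/GFP range. The rise lost its call in 6 of 8 fits without 1 library (KO/GFP replicates 1, 3 and 4 and KO/aYAP replicates 2, 3 and 4), at 0.79 to 1.00, and in edgeR. The uninjected hearts had 14.9, 13.1, 11.9 and 10.3 CPM in WT and 1.603, 2.602, 1.15 and 13.6 CPM in KO.

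Kif15, which helps Kif11 keep spindle poles apart, was at 13.8, 11.04, 8.698 and 11.6 CPM in WT/GFP and 3.97, 10.6, 9.65 and 1.76 CPM in KO/GFP hearts (log2 fold change -0.92, standard error 0.34, adjusted p = 0.081). It was called without KO/GFP replicate 2 (-1.20) or replicate 3 (-1.16) and was at -0.51 without replicate 4. Its KO/GFP replicates 2 and 3 lay inside the WT/GFP range and replicates 1 and 4 far below it. With active YAP it stood at 11.9, 11.2, 9.32 and 7.09 CPM in KO hearts, and in the uninjected set at 18.4, 15.4, 12.2 and 11.4 CPM in WT and 3.11, 4.05, 2.997 and 15.2 CPM in KO hearts. Kif11, the motor that makes the spindle bipolar, had log2 fold changes of -1.42 ± 0.29 in KO/GFP and 1.22 ± 0.29 with active YAP (± standard error). Kif20a and Kif23, motors of the central spindle, had -0.95 ± 0.21 and -1.26 ± 0.35 in KO/GFP. Kif18b, Kif20b and Kif22 lay between -1.36 and -1.15, and the chromokinesin Kif4 was at -1.19.

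The chromosomal passenger complex consists of the kinase Aurkb and its partners Incenp, Birc5 (survivin) and Cdca8 (borealin), and corrects wrong attachments before anaphase. The 3 partners were called lower in KO/GFP, and Aurkb, at an adjusted p of 0.06, was not. Cdca8 was at 31.02, 26.996, 25.8 and 23.1 CPM in WT/GFP and 5.59, 22.4, 12.2 and 3.47 CPM in KO/GFP hearts (log2 fold change -1.5, standard error 0.34, adjusted p = 0.008), without overlap. It rose to 16.5, 20.8, 21.3 and 24.1 CPM with active YAP (log2 fold change 1.14, standard error 0.34, adjusted p = 0.034), a call lost in 5 of 8 fits without 1 library (KO/GFP replicates 1 and 4 and KO/aYAP replicates 2, 3 and 4), at 0.76 to 1.13, and in edgeR. Uninjected, it was at 21.7, 20.7, 17.7 and 17.9 CPM in WT and 5.15, 5.896, 2.098 and 23.7 CPM in KO hearts. Incenp, the scaffold, was at 38.97, 31.8, 32.6 and 30.1 CPM in WT/GFP, 11.5, 28.3, 22.3 and 8.54 CPM in KO/GFP and 28.1, 22.9, 29.6 and 24.3 CPM in KO/aYAP hearts. It was called lower in KO/GFP (log2 fold change -1.02, standard error 0.26, adjusted p = 0.015), with no overlap, though not without KO/GFP replicate 1 (-0.87), and its rise with active YAP did not pass (log2 fold change 0.68, standard error 0.26, adjusted p = 0.085). Its uninjected values were 33.7, 30.6, 33.8 and 29.8 CPM in WT and 10.4, 11.2, 6.94 and 33.4 CPM in KO.

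Aurkb was at 19.3, 15.4, 13.6 and 13.3 CPM in WT/GFP and 5.15, 14.3, 12.2 and 2.09 CPM in KO/GFP hearts (log2 fold change -1.04, standard error 0.35, adjusted p = 0.06), with KO/GFP replicate 2 inside the WT/GFP range. With active YAP it stood at 18.05, 13.4, 13.7 and 16.3 CPM in WT and 9.42, 10.05, 14.1 and 10.8 CPM in KO hearts, where its fold change over KO/GFP did not pass (log2 fold change 0.60, standard error 0.35, adjusted p = 0.27). Without KO/GFP replicate 4 the fall was -0.59 and the rise 0.15, and the fall was called without KO/GFP replicate 2 (-1.36) or replicate 3 (-1.29). In uninjected hearts Aurkb was at 13.04, 15.7, 13.02 and 14.7 CPM in WT and 3.35, 3.56, 2.398 and 13.9 CPM in KO. Birc5 was called in both, at -1.21 ± 0.24 in KO/GFP and 1.05 ± 0.24 with active YAP.

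All 7 spindle pole genes and mitotic kinases were called lower in KO/GFP, with a median of -1.47, 6 were called higher with active YAP (all but Plk1), and 4 of the 7 genes called in the interaction were in this block (Aurka, Nek2, Hmmr and Aspm). Hmmr, a microtubule-binding protein of spindle poles, had the largest fall of the 54 genes in KO/GFP. It stood at 30.3, 35.3, 28.2 and 31.2 CPM in WT/GFP and 7.26, 17.3, 11.9 and 4.19 CPM in KO/GFP hearts (log2 fold change -1.68, standard error 0.26, adjusted p = 5.9e-04). With active YAP it stood at 21.6, 24.4, 26.2 and 23.3 CPM in KO (log2 fold change 1.31, standard error 0.26, adjusted p = 0.0031) and 26.6, 27.2, 29.1 and 24.3 CPM in WT hearts. KO/aYAP lay above all KO/GFP and below all WT/GFP hearts. In the uninjected set Hmmr was at 34.3, 33.8, 25.9 and 18.8 CPM in WT and at 4.03, 6.95, 3.397 and 38.5 CPM in KO hearts, where replicate 4 exceeded every WT heart.

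Plk1, the kinase that drives mitotic entry and cytokinesis, was the member of the block with the smallest fall. It stood at 22.2, 22.7, 17.7 and 16.7 CPM in WT/GFP and 5.71, 21.7, 8.13 and 3.305 CPM in KO/GFP hearts (log2 fold change -1.23, standard error 0.34, adjusted p = 0.025), with KO/GFP replicate 2 inside the WT/GFP range. The fall lost its call without WT/GFP replicate 1 (-1.18), WT/GFP replicate 2 (-1.17), KO/GFP replicate 1 (-1.10) or KO/GFP replicate 4 (-0.89), and in edgeR (adjusted p = 0.09). Its value was 11.4, 13.8, 18.6 and 16.9 CPM in KO/aYAP hearts (log2 fold change 0.86, standard error 0.34, adjusted p = 0.1), a rise of 1.31 that passed without KO/GFP replicate 2 and of 0.51 without KO/GFP replicate 4. The uninjected hearts had 18.8, 17.01, 15.96 and 16.8 CPM in WT and 3.79, 5.402, 3.15 and 20.98 CPM in KO. Aurka, the centrosomal Aurora kinase, was at 21.9, 18.96, 17.9 and 15.5 CPM in WT/GFP, 3.66, 11.1, 9.71 and 2.42 CPM in KO/GFP, 17.8, 17.9, 14.7 and 14.8 CPM in WT/aYAP and 13.6, 15.02, 16.1 and 15.2 CPM in KO/aYAP hearts, and its YAP effect was larger in KO (log2 fold change 1.42, standard error 0.42, adjusted p = 0.048). Nek2, which splits centrosomes, was at 19.3, 21.2, 15.3 and 20.6 CPM in WT/GFP, 6.33, 12.6, 9.77 and 3.64 CPM in KO/GFP, 17.3, 17.6, 19.8 and 14.6 CPM in WT/aYAP and 13.6, 19.5, 15.6 and 18.8 CPM in KO/aYAP hearts (log2 fold change 1.21, standard error 0.34, adjusted p = 0.044 for the interaction). Both Aurka and Nek2 separated KO/aYAP from KO/GFP without overlap. Aspm, a spindle pole protein whose human counterpart is mutated in microcephaly, was at 27.6, 30.2, 19.03 and 22.8 CPM in WT/GFP, 5.84, 18.2, 8.6 and 3.64 CPM in KO/GFP, 25.1, 20.3, 18.6 and 22.97 CPM in WT/aYAP and 21.6, 21.3, 20.8 and 18.3 CPM in KO/aYAP hearts (log2 fold change 1.47, standard error 0.42, adjusted p = 0.042 for the interaction). Tpx2 and Nusap1, which promote spindle microtubules, had log2 fold changes of -1.47 ± 0.37 and -1.3 ± 0.30 in KO/GFP and 1.2 ± 0.37 and 1.1 ± 0.30 with active YAP (± standard error).

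The 5 genes of the central spindle and cytokinesis had a median of -1.3 in KO/GFP, where 4 were called lower (Prc1, Ect2, Anln and Racgap1), and the same 4 were called higher with active YAP. Prc1 bundles the antiparallel microtubules of the central spindle. It stood at 56.001, 34.9, 24.4 and 30.02 CPM in WT/GFP, 14.2, 15.7, 15.7 and 6.995 CPM in KO/GFP (log2 fold change -1.39, standard error 0.25, adjusted p = 0.0019), 38.9, 34.01, 28.7 and 23.95 CPM in WT/aYAP and 25.7, 35.5, 30.99 and 31.7 CPM in KO/aYAP hearts (log2 fold change 1.23, standard error 0.25, adjusted p = 0.0039). WT/GFP replicate 1 was well above the rest of its group, and KO/GFP replicate 2, near WT for most genes, was as low here as replicates 1 and 3. The interaction passed (log2 fold change 1.39, standard error 0.35, adjusted p = 0.028). Uninjected, Prc1 was at 44.4, 57.01, 53.5 and 33.5 CPM in WT and 11.2, 17.2, 7.24 and 52.5 CPM in KO hearts.

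Ect2, the exchange factor that activates RhoA at the cleavage site, was at 15.9, 14.7, 12.1 and 14.6 CPM in WT/GFP and 5.34, 12.03, 9.54 and 4.68 CPM in KO/GFP hearts (log2 fold change -0.87, standard error 0.20, adjusted p = 0.01), with no overlap. With active YAP it stood at 13.6, 13.9, 13.7 and 14.6 CPM in WT and 13.4, 15.6, 15.2 and 12.2 CPM in KO hearts (log2 fold change 0.84, standard error 0.20, adjusted p = 0.011), the latter above every KO/GFP heart. It stood at 17.5, 15.2, 12.1 and 11.95 CPM in uninjected WT and 2.28, 5.07, 2.95 and 16.3 CPM in uninjected KO hearts. Anln encodes anillin, the scaffold of the contractile ring. It stood at 36.1, 49.98, 34.5 and 40.3 CPM in WT/GFP, 11.1, 24.9, 23.5 and 7.05 CPM in KO/GFP (log2 fold change -1.37, standard error 0.28, adjusted p = 0.0038), 45.7, 41.7, 37.1 and 29.9 CPM in WT/aYAP and 31.3, 32.6, 34.4 and 33.1 CPM in KO/aYAP hearts (log2 fold change 1.1, standard error 0.28, adjusted p = 0.014). The KO/aYAP values were close to each other and lay between the KO/GFP and WT/GFP ranges. In the uninjected set Anln was at 50.5, 46.2, 37.9 and 33.2 CPM in WT and 5.15, 15.8, 8.54 and 54.8 CPM in KO hearts. Racgap1, of the centralspindlin complex, had -1.3 ± 0.34 in KO/GFP and 1.13 ± 0.34 with active YAP. Cep55, needed for abscission, had -1.01 ± 0.40 and 0.90 ± 0.40, and neither passed.

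The anaphase block was split. Cdc20, the activator of the anaphase-promoting complex, and Espl1, separase, were called in both comparisons, whereas Pttg1, securin, the inhibitor of separase, did not change detectably in any. Cdc20 was at 40.3, 42.6, 31.04 and 29.7 CPM in WT/GFP, 9.93, 24.5, 12.8 and 5.18 CPM in KO/GFP (log2 fold change -1.55, standard error 0.29, adjusted p = 0.0024), 32.1, 34.1, 31 and 34.5 CPM in WT/aYAP and 25.5, 23.7, 33.5 and 35.3 CPM in KO/aYAP hearts (log2 fold change 1.28, standard error 0.29, adjusted p = 0.0075). KO/GFP did not overlap WT/GFP, and KO/aYAP replicate 2 was below KO/GFP replicate 2. Its interaction passed narrowly, at an adjusted p of 0.0496. Uninjected, Cdc20 was at 30.9, 29.9, 24.4 and 27.2 CPM in WT and 10.98, 8.43, 5.74 and 31.9 CPM in KO hearts. Espl1 had -1.52 ± 0.39 in KO/GFP and 1.3 ± 0.39 with active YAP.

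Pttg1 was at 37.8, 27.1, 36.2 and 30.1 CPM in WT/GFP, 22.3, 41.6, 31.5 and 31.2 CPM in KO/GFP, 35.9, 34.9, 32.1 and 33.3 CPM in WT/aYAP and 33.3, 32.3, 36.3 and 21.1 CPM in KO/aYAP hearts. In uninjected hearts it stood at 20.4, 21.6, 20.7 and 22.1 CPM in WT and 31.4, 17.6, 20.03 and 29.7 CPM in KO. All groups overlapped. KO/GFP replicate 4, where the median gene was at 16.4% of the WT/GFP mean, had Pttg1 at 95.2%, the highest of the 54 genes in that library. Its log2 fold changes were 0.17 ± 0.18 in uninjected KO, -0.07 ± 0.18 in KO/GFP and -0.04 ± 0.18 with active YAP. Per kb of transcript Pttg1 was second to Cenpa, at 29.4 CPM per kb in WT and 45.5 CPM per kb in WT/GFP hearts.

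The condensin block holds 5 subunits of condensin, which compacts mitotic chromosomes, with the topoisomerase Top2a, which untangles them, and Mki67, which encodes the proliferation marker Ki-67 that coats them. All 7 were called lower in KO/GFP by limma and 4 by edgeR, with a median of -1.03. Ncapg, Ncapd2, Smc2 and Top2a were called higher with active YAP. Top2a was at 116, 105, 86.7 and 96.5 CPM in WT/GFP, 29.98, 65.1, 54.5 and 13.1 CPM in KO/GFP (log2 fold change -1.51, standard error 0.33, adjusted p = 0.0057), 124, 85.99, 87.4 and 87.9 CPM in WT/aYAP and 80.9, 96.9, 92.5 and 89.6 CPM in KO/aYAP hearts (log2 fold change 1.35, standard error 0.33, adjusted p = 0.011). KO/GFP overlapped neither WT/GFP nor KO/aYAP. In uninjected hearts it stood at 135, 134, 109 and 101 CPM in WT and at 17.9, 28, 11.6 and 120.3 CPM in KO, where the first 3 replicates were far below WT and the fourth inside its range.

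Mki67 showed the same order. It stood at 230.2, 203, 176 and 167 CPM in WT and 23.4, 44.1, 22.98 and 238 CPM in KO hearts (log2 fold change -1.95, standard error 0.64, adjusted p = 0.11). In the injected hearts Mki67 was at 196.03, 189, 156 and 160.4 CPM in WT/GFP, 57.2, 148, 104 and 20.6 CPM in KO/GFP (log2 fold change -1.4, standard error 0.38, adjusted p = 0.023), 208, 162, 158 and 145 CPM in WT/aYAP and 141, 149, 153 and 128 CPM in KO/aYAP. The fall lost its call without WT/GFP replicate 1 (-1.34), WT/GFP replicate 2 (-1.36) or KO/GFP replicate 1 (-1.33) and in edgeR (adjusted p = 0.059), and was -0.86 without KO/GFP replicate 4. KO/GFP stayed below WT/GFP in every heart, but replicate 2 lay within the KO/aYAP range and the rise with active YAP did not pass (log2 fold change 1.11, standard error 0.38, adjusted p = 0.062). That rise passed without KO/GFP replicate 2 (1.49) or replicate 3 (1.33) and was 0.57 without replicate 4. KO/aYAP hearts were all below WT/GFP hearts.

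Smc4, a core subunit of both condensins, had the smallest fall that was called. It stood at 122, 117, 110.03 and 97.8 CPM in WT/GFP, 64.3, 119, 69.3 and 57.5 CPM in KO/GFP (log2 fold change -0.58, standard error 0.17, adjusted p = 0.035), 109.5, 128, 106 and 114 CPM in WT/aYAP and 72.6, 93.1, 95.7 and 73.95 CPM in KO/aYAP hearts (log2 fold change 0.16, standard error 0.17, adjusted p = 0.58). The fall lost its call in 6 of 8 fits without 1 library (all but those without WT/GFP replicate 4 or KO/GFP replicate 2), where it lay between -0.58 and -0.45, and in edgeR (adjusted p = 0.066). Smc4 was the member least changed by active YAP in KO apart from Pttg1, and it stood lower than in WT/GFP at -0.42 ± 0.17, where its adjusted p was 0.78. Uninjected, it was at 83.1, 68.4, 56.3 and 51.8 CPM in WT and 27.5, 44.1, 36.1 and 73.1 CPM in KO hearts. Its partner Smc2 had -1.03 ± 0.27 in KO/GFP and 0.94 ± 0.27 with active YAP. Ncapg, Ncapd2 and Ncaph, the other condensin I subunits, had -1.19 ± 0.25, -0.70 ± 0.15 and -0.72 ± 0.23 in KO/GFP.

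Related genes outside the 54 moved in part with them. Of 29 other kinetochore genes, 18 were called lower in KO/GFP (background 7.22%) and 9 higher with active YAP in KO (background 7.85%), with medians of -0.65 and 0.53. The kinetochore scaffold Knl1 was at -1.40 ± 0.25 and 1.37 ± 0.25 (log2 fold change ± standard error, adjusted p = 0.0017 and 0.0018), whereas Zwint was at 0.09 ± 0.10 and -0.04 ± 0.10. Of 25 other spindle and cytokinesis genes, 16 were called lower in KO/GFP and 9 higher with active YAP. The spindle protein gene Ckap2l was at -1.54 ± 0.28 and 1.3 ± 0.28, and the transport motors Kif3a and Kif5b were at 0.13 ± 0.13 and -0.03 ± 0.08 in KO/GFP. Of 24 genes of the anaphase-promoting complex and cohesin, 5 were called lower in KO/GFP and 6 higher with active YAP, with medians of -0.14 and 0.18. Ube2c, the ubiquitin-conjugating enzyme of that complex, was at -1.68 ± 0.40 in KO/GFP, and the complex subunits Anapc4 and Anapc5 at 0.17 ± 0.08 and 0.08 ± 0.07. Of 3 condensin II genes, Ncapg2 and Ncaph2 were called lower in KO/GFP, at -0.99 ± 0.24 and -0.49 ± 0.14, and Ncapd3, at -0.10 ± 0.11, was not. In uninjected KO hearts, 3 of the 29, 1 of the 25, 0 of the 24 and 0 of the 3 genes were called lower, beside 3.46% of all genes. For these last 2 lists, 5 and 2 genes were lower at an unadjusted p of 0.05, beside the 12.7% of all genes.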

How the data were processed

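Per the labels and the study's methods, the authors used cutadapt 2.3 for trimming, HISAT2 2.1.0 for alignment to GRCm38, StringTie 1.3.4 for assembly and counts per gene, and edgeR 3.26.1 for CPM. Reads were 50 bp single-end in uninjected and 150 bp paired-end in injected hearts. The deposited signal is CPM per scaled library size, with columns summing to 942566 to 1134439. Whole reads, which are StringTie estimates, were recovered for 100% of the values (tolerance 0.1 read). Depth was 15015038 to 31154155 reads, which sets counting error only.

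Symbols came from GENCODE M21 names for 15655 of 15667 and 15314 of 15327 identifiers. Genes over 1 CPM in 4 or more of 8 uninjected (15598) or 8 or more of 16 injected libraries (14597) were fitted on log2(CPM + 1), which understates changes of low genes, with limma 3.58.1 (R 4.3.3), its trend option and adjustment by Benjamini-Hochberg. The injected groups shared 1 fit, so standard errors and p-values of each injected comparison also draw on the spread of groups outside it. All 54 genes passed the filter. Levels per kb used the length of the principal transcript.

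All 54 genes are accounted for. Values of every library are given for the genes with the lowest and highest fold change of each block in KO/GFP against WT/GFP, and for Mki67, Cenpa, Aurkb, Anln and Ect2. Genes called in uninjected hearts or in the interaction are named. Of other lists, at most the 3 lowest and 3 highest genes are named. Members and lists were chosen with earlier results of these data known. The p-values measure the spread between libraries labelled as replicates. Alternatives were edgeR 4.0.16 and DESeq2 1.42.0 on recovered reads, other scalings, filters and pseudocounts, a Ddx3y covariate, a replicate block, fits on single pairs of groups and dropping 1 library at a time. Tests were first checked on simulated counts, drawn with the same dispersion in every group and independently for each gene. That check could not show how the fits behave with the unequal spread and shared movement of genes seen here. Promoters were read in Python 3.11.15.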

Additional observations from a re-analysis of the deposited data

Results flagged for a closer look

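In KO replicate 4, 10 of the named genes stood far above the other 3 KO libraries by Dixon's test: Cenpm at 6.03 CPM, Nuf2 at 17.6 CPM, Kif2c at 13.6 CPM, Kif15 at 15.2 CPM, Incenp at 33.4 CPM, Hmmr at 38.5 CPM, Plk1 at 21.0 CPM, Top2a at 120.3 CPM, Mki67 at 237.6 CPM and Aurkb at 13.9 CPM. The same test did not flag the median of the 54 genes or of any block in this library. Kif2c at 10.3 CPM was likewise high in KO/GFP replicate 2. WT/aYAP replicate 1 was high in Top2a, at 124 CPM, in the median of the 54 genes, at 0.15 on the log2 scale relative to WT/GFP, and in that of the outer kinetochore block, at 0.09. KO/aYAP replicate 3 was high in the anaphase block, at -0.08. Of 192 groups of 4 values examined, 15 were flagged, and chance alone flags about 1 in 20, or 9.6. The genes and medians share libraries and move together, so the flags are not independent and this expected number is only a rough guide.

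The effect of active YAP differed between KO and WT hearts in limma's interaction term for 7 genes, by a log2 fold change of 1.15 for Cenpf, 1.42 for Aurka, 1.21 for Nek2, 1.52 for Hmmr, 1.47 for Aspm, 1.39 for Prc1 and 1.38 for Cdc20. The number of genes called was 3 with edgeR, 3 with the Ddx3y covariate, 4 with a replicate block and 1 to 36 with a library left out.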

How the results depend on the processing

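The median log2 fold change of the 54 genes stayed within the spread of replicates in all 6 comparisons under every alternative and kept its direction in 5, whereas that of WT/aYAP against WT/GFP (-0.03) became 0.01 with the Ddx3y covariate and ranged from -0.06 to 0.02 with a library left out. No gene was called lower in KO/aYAP, or in either direction in WT/aYAP, against WT/GFP under any. In uninjected hearts, the count of 1 gene called lower became 0 with a pseudocount of 0.1, with more than 1 CPM required in every library, with a replicate block and with edgeR, 5 with DESeq2, 12 with plain CPM scaling and 50 with the Ddx3y covariate, and ranged from 0 to 51 with a library left out (51 without KO replicate 4). The covariate fit is not independent of leaving out KO replicate 4, which had the lowest Ddx3y. DESeq2 gave no adjusted p there for some genes, among them Cenpe, Kif2c and Plk1, so it could not call them. In KO/GFP, 47 became 17 in a fit on those 2 groups, 33 with edgeR and 28 to 52 with a library left out. With active YAP in KO, 29 became 4 in a fit on those 2 groups, 20 with edgeR and 18 to 50 with a library left out. In both fits on 2 groups the spread came from fewer libraries, a larger share of them KO/GFP. The median coefficient of variation was 59.2% in KO/GFP and 11.8% to 13.7% in the other injected groups. The shared fit can therefore understate the spread of KO/GFP hearts. In the interaction, 7 became 16 with plain CPM scaling, 4 with the replicate block, 3 with the Ddx3y covariate, 3 with edgeR and 1 to 36 with a library left out (36 without KO/GFP replicate 2 and 13 without replicate 3). The cause was not tested. Plain CPM scaling moved the median of all genes by -0.12 in uninjected hearts, -0.11 in KO/GFP, 0.13 with active YAP in KO and 0.12 in the interaction. Pttg1 changed sign in uninjected hearts with the Ddx3y covariate (-0.01), in KO/GFP without WT/GFP replicate 1 (0.00) or KO/GFP replicate 1 (0.08; range -0.21 to 0.08 over the libraries left out), and with active YAP in KO under plain CPM scaling (0.09) or without KO/GFP replicate 2 (0.10) or KO/aYAP replicate 4 (0.13). Of the other values of single genes under alternatives, 1103 kept their side of the threshold, 65 passed it and 51 lost it. Replicate numbers did not pair the libraries: deviations of same-numbered libraries correlated at -0.19 to 0.10 in uninjected and -0.17 to 0.14 in injected hearts.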
